A study of Mus musculus with 1 sample.

Results

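Transcripts of the cyclins, the cyclin-dependent kinases (CDKs), the CDK inhibitors, the E2F transcription factors and the retinoblastoma pocket proteins were examined in surface epithelial cells from ovaries of wild-type mice, 3 months old. The genes were chosen by symbol. They comprised the Ccn genes with a letter and at most 1 digit after that stem, the numbered Cdk genes, the Cdkn inhibitors, the numbered E2f genes, and Rb1, Rbl1 and Rbl2. Cdkn1a, Cdkn1c, Cdkn2a and Ccng1 were left out. The choice gave 57 genes with 136 probe sets, of 18193 genes with 34945 probe sets that carry a single gene symbol. Ccnb1 and Cdk15 match the same rule but had no such probe set and were not analysed here.

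The ovary is covered by a simple epithelium, 1 cell thick, of mesothelial origin. Total RNA of the cells was hybridised to 1 Affymetrix mouse expression array, in which each gene is read by 1 or more probe sets, each a group of short oligonucleotides. The series design names mice of more than 1 genotype. Only the wild-type array was analysed here. Genotypes were therefore not compared, no value has a replicate error, and no p-value is given. The sources used here do not state how many mice gave the sample, their strain, or whether the cells were cultured.

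A cyclin binds and activates a CDK, and the pair phosphorylates proteins that drive the cell from one phase of its cycle to the next. In G1, D-type cyclins with Cdk4 or Cdk6 and then E-type cyclins with Cdk2 phosphorylate the pocket proteins, which releases E2F factors to transcribe genes of DNA replication. Inhibitors of the INK4 type bind Cdk4 and Cdk6, and inhibitors of the CIP/KIP type bind cyclin and CDK together. Other cyclin and CDK pairs act in transcription and do not oscillate with the cycle. The surface epithelium is known to proliferate when the wound left by ovulation is repaired.

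A probe set was called above background when its intensity exceeded 46.5. This limit was the 95th percentile of 126 background probe sets. They belong to keratin-associated proteins and to receptors for bitter taste, odours and pheromones, whose transcripts have no known function in the ovary. Their median was 13, and 7 of the 126 exceeded the limit. Of 61 probe sets of genes listed as restricted to other organs, 17 exceeded it as well. The whole array ran from 6 to 32341 with a median of 41. Probe sets of different genes differ in how well they bind, so intensities are set against the background and not ranked between genes. In a bulk sample, fewer cells of a type and less RNA per cell cannot be told apart.

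Most genes of the cell cycle families were above background. The brightest probe set passed the limit in 52 of 57 genes (91.2%), against 62.8% of all 18193 named genes. The median level of the brightest probe set was 8.62 on the log2 scale for the 57 genes and 7.06 for all named genes. At 10 times the limit or more there were 24 of the 57 genes (42.1%), against 29.1% of all named genes. Over single probe sets, 99 of 136 (72.8%) were above the limit, against 55.1% of all 34945 named probe sets. The 5 genes not above background were Ccna1, Ccnb3, Ccno, Cdk3 and E2f2.

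**Figure D1:**
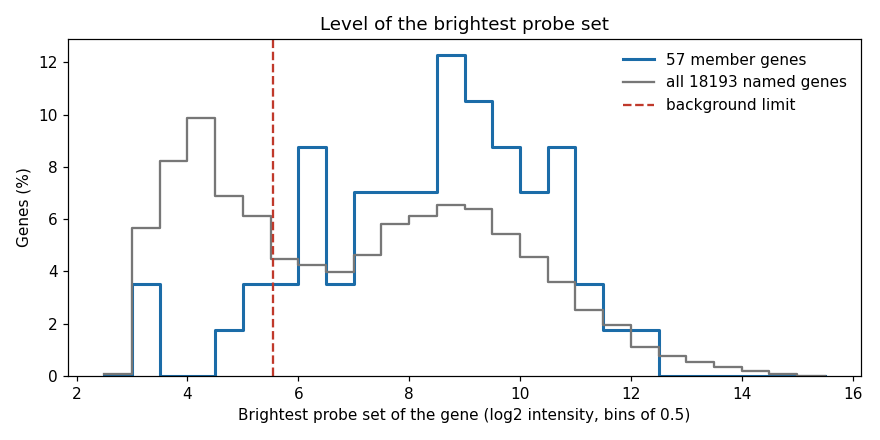
Distribution of the level of the brightest probe set, on a log2 intensity axis in bins of 0.5, for the 57 genes (blue) and all 18193 named genes (grey), as a percentage of each set. The dashed line is the background limit at 5.54; 52 of the 57 genes (91.2%) lie to its right, against 62.8% of all named genes.

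The number of probe sets per gene bears on these shares, because a gene with more probe sets has more chances to pass. Of the 57 genes, 21 had 1 probe set, and 17 of these (81.0%) were above background, against 47.3% of the 9183 named genes with 1 probe set. With 2 probe sets, 15 of 16 genes (93.8%) were above it, against 71.8% of named genes. All 10 genes with 3 probe sets were above it, against 82.9%. All 3 genes with 4, all 4 with 5 and all 3 with 6 or more were also above it, against 88.0%, 91.4% and 94.9% of named genes.

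**Figure D2:**
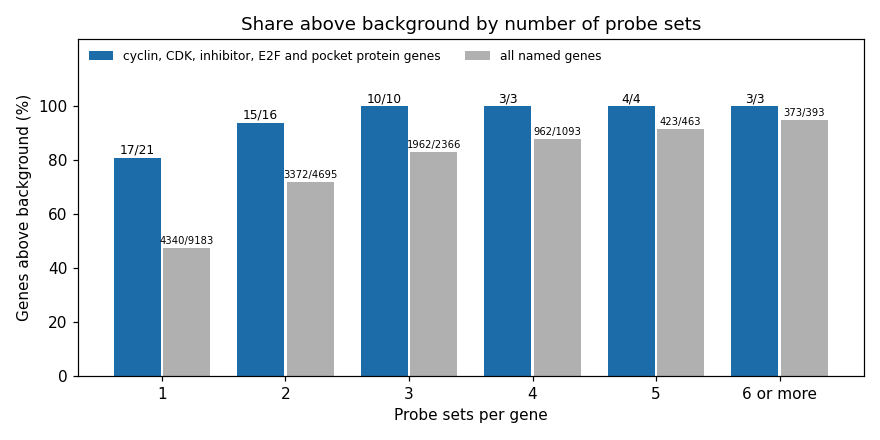
Percentage of genes whose brightest probe set was above background, by number of probe sets per gene, for the 57 genes (blue) and all named genes (grey). Labels above the bars give genes above background over genes in the class; the blue bar is the higher one in every class, and the classes of 4 or more probe sets hold only 3 or 4 of the 57 genes each.

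Among the D-type and E-type cyclins of G1, all 5 genes were above background, with 14 of 16 probe sets. Of all named genes 62.8% were above it, and of all named probe sets 55.1%. Ccnd2, a D-type cyclin that granulosa cells of the ovary need to proliferate, had intensities of 3862, 3861, 3217, 2514, 1298, 462 and 87 on its 7 probe sets. All 7 lay above the limit, although the highest was 44.4 times the lowest. Ccnd1, the D-type cyclin induced by growth factors in many epithelia, had 226, 189 and 40, and the last fell short of the limit. Ccnd3, the third D-type cyclin, had 1009, 68 and 24. Thus transcripts of all 3 D-type cyclins were detected, but only Ccnd2 passed on every probe set.

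The E-type cyclins activate Cdk2 at the entry to DNA replication. Ccne1 had 114 and 70, and Ccne2 had 48 on its only probe set, 1.03 times the limit. Ccne2 was among the 6 genes that lost their call when the limit was raised to the 99th percentile of the background probe sets, 84.8.

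Of the cyclins of DNA replication and mitosis, 3 of 5 genes were above background, close to the 62.8% of all named genes. Ccna2, the A-type cyclin of dividing somatic cells, had 429 and 222. Ccnb2, a mitotic B-type cyclin, had 428. Ccnf, a cyclin that serves as the substrate receptor of a ubiquitin ligase and activates no CDK, had 50 and 19, so that its call rested on 1 probe set at 1.08 times the limit. Ccna1 and Ccnb3, which are known chiefly from germ cells, each had 11 on a single probe set, below the background median of 13. Of the A and B types measured here, Ccna2 and Ccnb2 were thus detected, and Ccna1 and Ccnb3 were not.

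**Figure D3:**
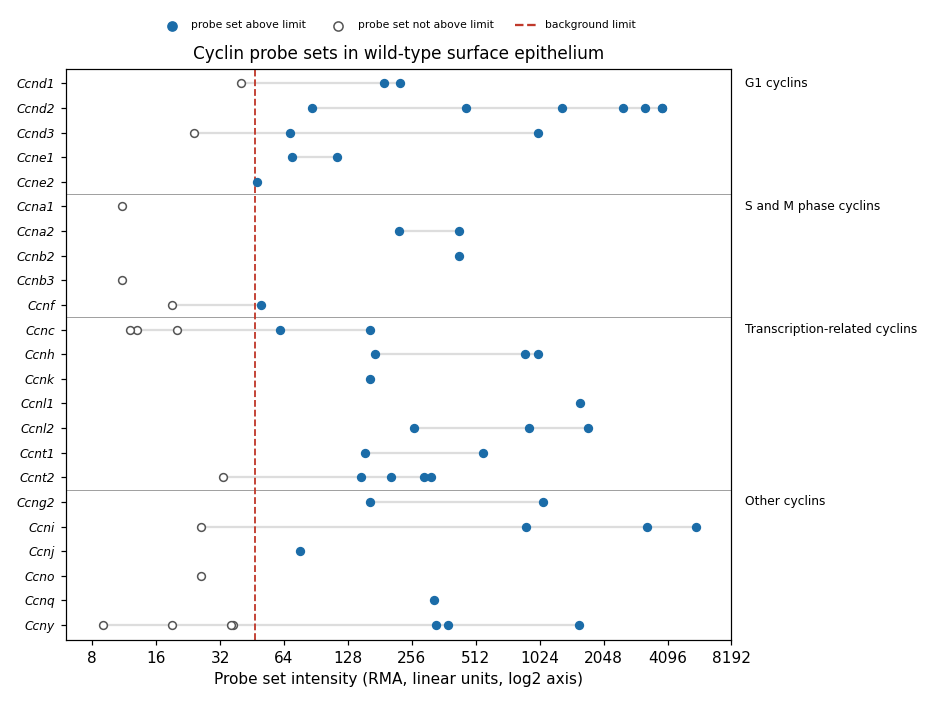
Intensity of every probe set of the 23 cyclin genes on a log2 axis, grouped by role; each point is 1 probe set, filled when above the background limit of 46.5 (dashed line) and open when not, and a grey line joins the probe sets of a gene. All 7 points of Ccnd2 are filled, whereas the single points of Ccna1, Ccnb3 and Ccno are open.

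The kinases grouped here as those of the cell cycle, Cdk1, Cdk2, Cdk3, Cdk4 and Cdk6, were above background in 4 of 5 cases. Of all named genes 62.8% were. Cdk4, a partner of the D-type cyclins, had 2342, 2233 and 1731, the closest agreement of any of the 36 genes with several probe sets (SD of 0.23 on the log2 scale). Cdk6, the other D-type partner, had 1417 and 1132 on a pair of probe sets and 44, just under the limit, on another. Cdk2, the partner of E-type and A-type cyclins, had 244 on 1 probe set and 11 on the other. Cdk1, the mitotic kinase, had 713 on its only probe set, 15.3 times the limit. Cdk3 had 39, under the limit. The mouse reference annotation (assembly GRCm38.p6) lists Cdk3 as a transcribed pseudogene.

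Promoters of 4 genes are shown because they carry the motifs by which cell cycle transcription is best known. Each is the 250 bases before the annotated transcription start, on the strand of the gene, from RefSeq on GRCm38.p6. Capitals mark matches to the motifs named for that promoter, on either strand. The motifs were E2F (TTTCGCGC, TTTGGCGC, TTTCCCGC or TTTGCCGC), the cell cycle homology region or CHR (TTTGAA), which binds complexes that hold pocket proteins, the CCAAT box (CCAAT), which binds NF-Y, and the E-box (CACGTG), which binds MYC. The Cdk1 sequence is at chr10:69352913-69353162 on the minus strand, with E2F, CHR and CCAAT matches in capitals. The Ccnb2 sequence is at chr9:70421555-70421804 on the minus strand, with CHR and CCAAT matches in capitals. The Rbl1 sequence is at chr2:157204535-157204784 on the minus strand, with its E2F match in capitals. The Cdk4 sequence is at chr10:127063285-127063534 on the plus strand, with its E-boxes in capitals.
Cdk1: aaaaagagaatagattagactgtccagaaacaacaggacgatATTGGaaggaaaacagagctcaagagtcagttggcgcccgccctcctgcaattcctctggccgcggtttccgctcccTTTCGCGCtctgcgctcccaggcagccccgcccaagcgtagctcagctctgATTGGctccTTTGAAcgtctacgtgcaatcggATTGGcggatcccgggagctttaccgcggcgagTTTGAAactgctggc
Ccnb2: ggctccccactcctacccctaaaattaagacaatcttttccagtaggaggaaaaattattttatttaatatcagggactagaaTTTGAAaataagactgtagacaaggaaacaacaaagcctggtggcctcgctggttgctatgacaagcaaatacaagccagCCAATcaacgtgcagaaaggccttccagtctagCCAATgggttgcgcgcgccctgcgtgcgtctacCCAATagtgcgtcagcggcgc
Rbl1: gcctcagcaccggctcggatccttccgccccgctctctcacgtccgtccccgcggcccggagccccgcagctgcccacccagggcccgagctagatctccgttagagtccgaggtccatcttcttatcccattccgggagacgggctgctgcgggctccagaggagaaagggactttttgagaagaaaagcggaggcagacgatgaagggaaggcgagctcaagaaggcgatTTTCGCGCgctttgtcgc
Cdk4: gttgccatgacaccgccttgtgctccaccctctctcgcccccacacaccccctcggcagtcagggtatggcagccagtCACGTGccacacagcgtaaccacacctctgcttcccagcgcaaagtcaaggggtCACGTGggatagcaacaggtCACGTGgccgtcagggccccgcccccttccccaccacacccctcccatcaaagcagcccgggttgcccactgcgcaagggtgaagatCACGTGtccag

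The Cdk1 promoter held 1 E2F match, from 131 to 124 bases before the start, with 2 CHR matches and 3 CCAAT boxes. The Ccnb2 promoter held 3 CCAAT boxes, whose first bases lay 87, 54 and 21 before the start. Its 1 CHR match lay upstream of all of these, from 167 to 162 bases before the start. Rbl1 held 1 E2F match, 18 bases before the start at its first base, and none of the other motifs. In Cdk4 there were 4 E-boxes and none of the other motifs. A match is a run of letters and does not show that a factor bound there.

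**Figure D4:**
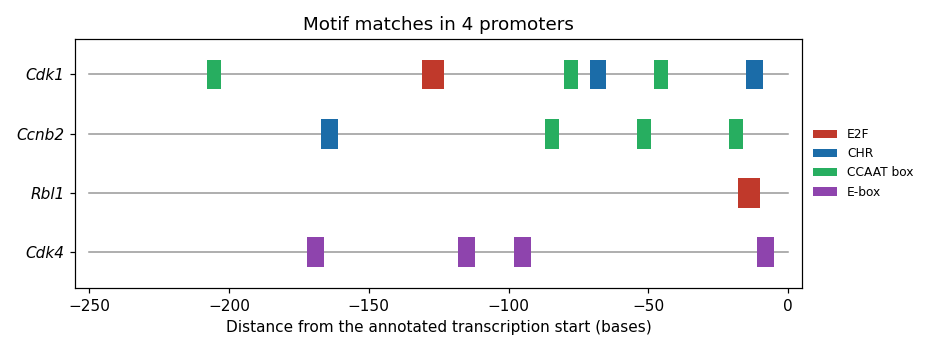
Positions of motif matches in the 4 promoters shown, as distance in bases from the annotated transcription start, with each bar as long as its motif. Ccnb2 has 3 CCAAT boxes (green), Cdk4 has 4 E-boxes (purple), and Cdk1 and Rbl1 have 1 E2F match each (red).

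Promoters were at hand for 44 of the 57 genes, in 49 windows. An E2F match was found in 5 of the 49 (10.2%), against 1.86% of 32851 RefSeq promoter windows of the same length. These 5 belonged to Cdk1, Cdk2, E2f3, E2f7 and Rbl1, and all 5 were above background, as were 91.2% of the 57 genes whatever their promoter. Of the genes with a CHR match 9 of 10 were above background, of those with a CCAAT box 19 of 21, and of those with an E-box 7 of 7. An E-box was found in 7 (14.3%, against 6.02%), a CHR match in 10 (20.4%, against 16.0%) and a CCAAT box in 22 (44.9%, against 33.8%). No match of one motif overlapped a match of another. The shares describe letters only, and windows of 1 gene can overlap.

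The cyclins of transcription were all above background, with 16 of 20 probe sets in 7 genes. The shares over all named genes and probe sets were 62.8% and 55.1%. Ccnh, which with Cdk7 forms the kinase that activates other CDKs and phosphorylates RNA polymerase, had 1005, 875 and 172. Ccnt1 and Ccnt2, partners of Cdk9 in the release of paused polymerase, differed in agreement. Ccnt1 had 553 and 154, and Ccnt2 had 314, 292, 205, 147 and, below the limit, 33. Ccnk, the partner of Cdk12 and Cdk13, had 162 on its only probe set.

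Ccnl1 and Ccnl2, cyclins linked to splicing, had 1592 on 1 probe set and 1722, 914 and 261 on 3. Ccnc, a subunit of the Mediator kinase module, had 163 and 61 on 2 of its 5 probe sets, and 20, 13 and 12 on the others. Its call therefore rested on a minority of its probe sets.

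The kinases of transcription were likewise all above background, with 18 of 22 probe sets in 7 genes. The shares over all named genes and probe sets were 62.8% and 55.1%. Cdk7 had 1150, 477, 364, 135 and 79, all above the limit. Cdk8 and Cdk19, alternative kinases of the Mediator module, had 595 on 1 probe set and 648 and 276 on 2. Cdk9 had 1595 and 55. Transcripts of both Mediator kinases and of the polymerase kinases Cdk7 and Cdk9 were thus detected on every probe set. The lowest values of Cdk7 and Cdk9, 79 and 55, did not reach the 99th percentile limit of 84.8.

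Cdk11b, a kinase of splicing and a partner of the L-type cyclins, had 845 on 1 probe set. Cdk12 had 214, 139, 91 and 85 on 4 of its 7 probe sets, and 37, 12 and 11 on the others, which were not above the limit. Cdk13 had 409, 84, 71 and 14.

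Of the cyclins with other roles, 5 of 6 genes passed, against 62.8% of all named genes. They passed on 10 of 16 probe sets, where 55.1% of all named probe sets passed. Ccni, an atypical cyclin, had 5599, 3270, 878 and 26. Ccng2, a cyclin associated with exit from the cycle, had 1058 and 163. Ccny, a membrane-bound cyclin that activates Cdk14 and Cdk16, had 1575, 378 and 333 on 3 probe sets and between 9 and 37 on the other 4.

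Ccnq, which activates Cdk10, had 325, and Ccnj had 76, 1.63 times the limit. Ccno, a cyclin of multiciliated cells, had 26, below the limit.

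Kinases with other roles were above background in all 7 genes, against 62.8% of all named genes. They passed on 10 of 16 probe sets, where 55.1% of all named probe sets passed. Cdk5, best known from neurons, had 810, 73 and 31. Cdk16, a partner of Ccny, had 2845, 823 and 314, with 20 and 14 on the other 2 probe sets. Cdk14, another partner of Ccny, had 641, with 25 and 20 on the others. These genes passed while part of their probe sets stayed at background level.

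Cdk17, a relative of Cdk16, had 738 and 26. Cdk10 had 233 and Cdk18 had 129, each on 1 probe set. Cdk20, a kinase linked to the primary cilium, had 64, 1.38 times the limit.

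**Figure D5:**
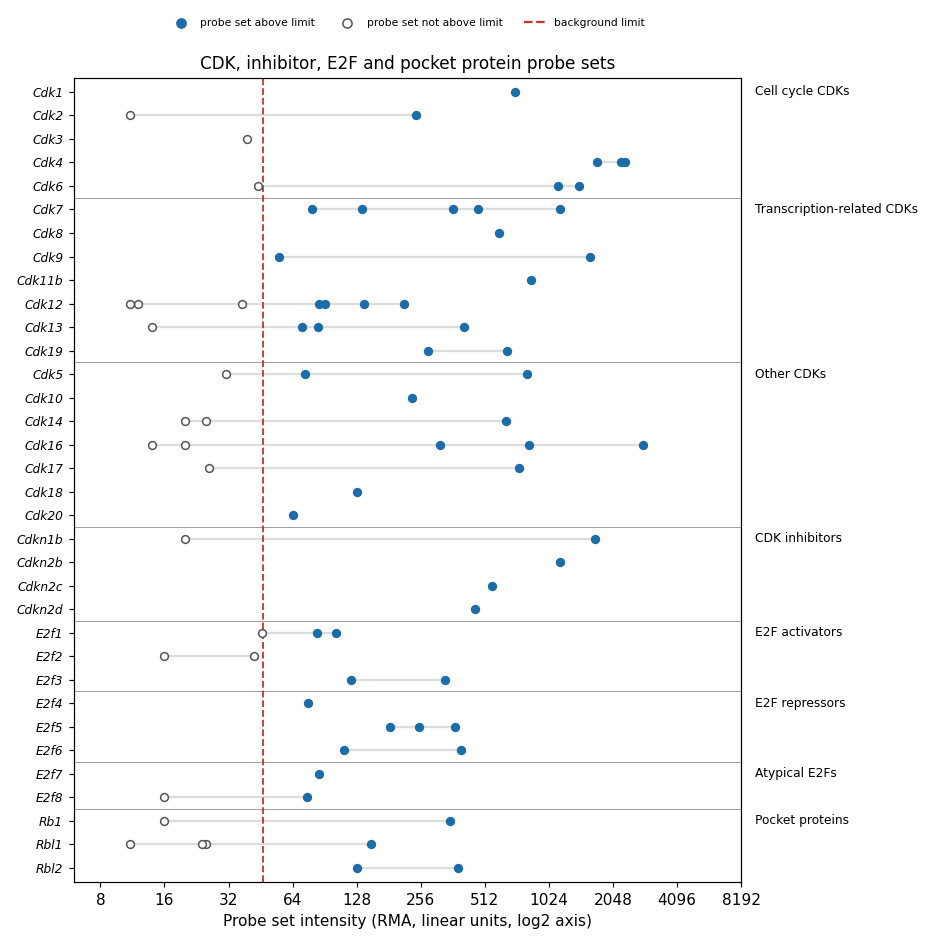
Intensity of every probe set of the 19 CDK, 4 inhibitor, 8 E2F and 3 pocket protein genes on a log2 axis, grouped by role; filled points exceed the background limit of 46.5 (dashed line), open points do not, and a grey line joins the probe sets of a gene. All 3 points of Cdk4 lie together on the right, whereas Cdkn1b has 1 point at 1686 and another at 20.

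All 4 CDK inhibitors analysed here were above background, against 62.8% of all named genes. They passed on 4 of 5 probe sets, where 55.1% of all named probe sets passed. Cdkn1b, the CIP/KIP inhibitor that restrains Cdk2 in quiescent cells, had 1686 on 1 probe set and 20 on the other. That SD of 4.52 on the log2 scale was the largest among the 36 genes with several probe sets. Of the INK4 inhibitors, Cdkn2b, which is induced by TGF-beta in epithelial cells, had 1160, 24.9 times the limit. Cdkn2c had 552 and Cdkn2d had 460, both INK4 inhibitors also, on 1 probe set each. Transcripts of D-type cyclins, of their kinases and of inhibitors of these kinases were thus all detected in the same RNA.

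The E2F factors were above background in 7 of 8 genes, with 12 of 16 probe sets. The shares over all named genes and probe sets were 62.8% and 55.1%. Of the activators, E2f1 had 102, 83 and 46, the last immediately under the limit. E2f2 had 42 and 16 and was the 1 E2F gene not called. E2f3 had 331 and 121. Among activators, then, only E2f3 was above the limit on every probe set.

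The repressor E2Fs passed on all 6 probe sets, against 55.1% of all named probe sets. E2f4, the E2F that partners pocket proteins in resting cells, had 76, and E2f5, its close relative, had 369, 251 and 184. E2f6, a repressor that binds no pocket protein, had 394 and 111. Of the atypical repressors, E2f7 had 85, 1.83 times the limit, and E2f8 had 75, 1.61 times the limit, and 16.

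All 3 pocket proteins were above background, against 62.8% of all named genes. They passed on 4 of 8 probe sets, where 55.1% of all named probe sets passed. Rb1, the retinoblastoma protein, had 352 and 16. Rbl1, which is more abundant in cycling cells, had 149 on 1 probe set and 25, 24 and 11 on the others. Rbl2, the pocket protein of quiescent cells, had 383 and 128, both above the limit.

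Regulators of CDK and E2F activity outside these families were also above background, in 27 of 28 listed genes, against 62.8% of all named genes. The median of their brightest probe sets was 8.14 on the log2 scale. Tfdp1 and Tfdp2, the dimer partners of E2F factors, had 1002 and at most 1415. Cdc25a, Cdc25b and Cdc25c, phosphatases that activate CDKs, had at most 278, 120 and 62. Wee1 and Pkmyt1, kinases that inhibit Cdk1, had at most 590 and 317. Every one of these opposing enzymes had at least 1 probe set above the limit, but Cdc25c reached only 1.33 times the limit. At the 99th percentile limit of 84.8, 23 of the 28 listed genes were above background, and Cdc25c was not.

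Cks1b and Cks2, small subunits that bind CDKs, had at most 3212 and 1533. Mnat1, the assembly factor of the Cdk7 kinase, had 643. Skp2, the ubiquitin ligase receptor that degrades the Cdkn1b product, had at most 116, with 4 of 6 probe sets above the limit, and Fbxw7, which degrades cyclin E, had 285 and 187. Mybl2, an E2F target that joins complexes on CHR promoters, had 36 and 23 and was the 1 listed gene not above background. It is named here because of that value.

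Probe sets of 1 gene often fell on both sides of the limit. Of 36 genes with more than 1 probe set, 20 did so (55.6%), against 46.7% of 9010 such named genes. For 15 genes every probe set was above the limit, and for E2f2 none was. The median SD between probe sets of a gene was 1.58 on the log2 scale, against 1.39 over all named genes with several probe sets. Probe sets whose identifiers mark several transcripts or shared probes were above the limit in 24 of 30 cases (80.0%), and the others in 75 of 106 (70.8%). Over all named probe sets these shares were 71.4% and 50.3%.

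In all, 5 genes had a brightest probe set within 1.5 times of the limit on either side. Ccne2, Ccnf and Cdk20, with 48, 50 and 64, were above it, and Cdk3 and E2f2, with 39 and 42, were not. For these genes the call depended on where the limit was placed. Further from the limit, Ccno was gained at the 90th percentile, and Ccnj, E2f4 and E2f8 were lost at the 99th.

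The sample carried markers of the labelled tissue and transcripts listed as markers of other cells, so a transcript here cannot be assigned to 1 cell type. Whether other cells or the surface epithelium itself made the latter was not tested. All 8 surface epithelium and mesothelium markers were above background, with Krt8, a keratin of simple epithelia, at 3172 to 4573 and Krt18, its partner, at 3377. Of the other lists, 5 of 5 fibroblast markers were above background (Col1a1 and Col1a2, chains of type I collagen, at up to 8290 and 29972). For smooth muscle the count was 4 of 4 (Acta2 and Tagln, contractile proteins, at up to 23141 and 22357). For macrophages it was 5 of 5 (Csf1r and C1qa at up to 527 and 244), but Adgre1 had only 47, 1.01 times the limit. The share over all named genes was 62.8%. Of 5 measured granulosa cell markers 4 passed, with Inha at 1438, Inhba at up to 797, Foxl2 at up to 321 and Amh at 58, while Fshr was not above the limit at 34. Endothelial markers numbered 1 of 5 (Kdr at 1813, with Pecam1 at 14 and Cdh5 at most 23 among the 4 not above it) and lymphocyte markers 0 of 3 (Cd3e at 46 and Cd3d at 39). All 6 markers of cycling cells passed, with Mki67 at 574 and Top2a at up to 569. The part of each cell type in the level of any cyclin, kinase or inhibitor, Ccnd2 included, was not tested.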

How the data were processed

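Total RNA of wild-type surface epithelial cells was labelled with biotin and measured on 1 Affymetrix array, per the labels' protocols. The deposited table holds 45101 probe set intensities. Software named in the submitters' processing notes is affy and RMA, a procedure of background correction, normalization across arrays and probe summary. No version or set of co-normalized arrays is stated in the sources used here. RMA output is normally in log2 units, but the deposited intensities are linear whole numbers. Rounding could therefore change the log2 value by 0.078 at 9, the lowest intensity of the 57 genes, and by 0.0154 near the limit. Differences between low intensities are compressed by RMA.

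Log2 was taken of the intensities. The platform annotation named the probe sets, and those with several symbols or none and control probe sets were left out. All 57 genes matched a gene number in RefSeq (GRCm38.p6) with the same symbol. Each gene took the level of its brightest probe set, and the limit was the 95th percentile of background probe sets. Every gene that the rule found was named. Of the list of other regulators the first 12 measured, and of each marker list the first 2 measured, were named in written order. Mybl2, Adgre1, Kdr and the remaining granulosa cell markers were added. The genes and lists were chosen with earlier results of these data known. The calling of genes was tested on simulated data. Every expressed gene there was given a signal above the limit, so calls close to the limit were not tested. Unexpressed genes there took intensities of the same background probe sets that set the limit. Their rate of calls was thus fixed in advance, and whether the limit suits ordinary genes was not tested. The alternatives were other limits, other background sets, the mean or lowest probe set, and the removal of marked identifiers. Arrays have no sequencing depth, and a lone array leaves the precision of its values unknown. Values were computed with pandas 2.3.3 and NumPy 2.4.6 and plotted with matplotlib 3.10.9, under Python 3.11.15.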

Additional observations from a re-analysis of the deposited data

How the results depend on the processing

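Of 82 counts over groups of genes recomputed under the 7 alternatives, 66 stayed within 1.5 times of the reported count. A limit at the 90th percentile (25.5) left 55 of the 57 genes above it, with Ccno, Cdk3 and E2f2 gained, and one at the 99th percentile (84.8) left 46, with Ccne2, Ccnf, Ccnj, Cdk20, E2f4 and E2f8 lost. A background of olfactory and vomeronasal receptors alone (29.3) left 54 above it, with Cdk3 and E2f2 gained. With the mean of the probe sets 48 were above it, with Ccnc, Ccnf, E2f8 and Rbl1 lost. Without marked identifiers 45 of the 52 genes still measured were, with Cdk2 and Cdk16 lost. The list of genes restricted to other organs gave a limit of 466, because Mbp, Actn3 and Myl7 in it reached 2526, 1334 and 466. Above that limit there were 24 of 57 genes, 37 of 136 probe sets, 2 of 5 G1 cyclins, 0 of 5 S and M phase cyclins, 7 of 13 transcription-related and other cyclins, 9 of 14 transcription-related and other CDKs, 0 of 8 E2F factors, 0 of 3 pocket proteins, 11 of 28 other regulators and 5280 of 18193 named genes (29.0%, against 42.1% of the 57). When each gene took the level of its lowest probe set, 32 of 57 genes, 3 of 5 G1 cyclins, 2 of 5 cell cycle CDKs, 8 of 14 transcription-related and other CDKs, 1 of 3 pocket proteins and 7228 of 18193 named genes (39.7%, against 56.1% of the 57) were above the usual limit. The mean and lowest settings do not apply to counts of single probe sets. A single array gives no replicate to leave out, and no paired analysis was possible because there is 1 sample.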
